A study of Mus musculus with 26 samples.

Results

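The genes described here are the ligands, receptors and inhibitors of the WNT pathway, with its main cytoplasmic and nuclear proteins. All array probe sets were taken whose single gene symbol begins with Wnt, Fzd, Sfrp or Dkk followed by a number, together with 15 genes named singly, and the probe set with the highest mean was kept for each gene. This gave 51 genes from 52 probe sets, of 19938 genes with a single-symbol probe set and 35556 probe sets on the array. They were 19 Wnt ligands, 10 Frizzled receptors, 4 Sfrp and 4 Dkk inhibitors, and 14 of the 15 single genes; Tcf7 was not analysed here. Only Wnt4 had a further probe set.

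WNT ligands are lipid-modified secreted proteins that bind a Frizzled receptor and, in the canonical branch, its co-receptor Lrp5 or Lrp6. Binding stops the Axin-containing destruction complex from degrading beta-catenin, which then enters the nucleus and acts with TCF/LEF factors on target genes, several of which (Axin2, Nkd1, Notum) restrain the pathway in turn. In the embryonic forebrain, WNT signals take part in regional patterning and in the balance between division and differentiation of neural progenitors.

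The cells were neurospheres (NSPs), floating cultures of neural stem cells, from the ventricular zone of C57BL/6J mouse embryos at embryonic day 14. They were set to differentiate into astrocytes in medium with 10% fetal bovine serum, without TNF or with TNF at 50 ng/mL, and RNA was measured at 0 h (untreated only) and at 6, 24, 48 and 72 h on Affymetrix Mouse Gene ST arrays. The labels give no genetic change in any group. Each of the 9 groups held 3 arrays, stated to be biological replicates, except TNF at 72 h with 2; the number of arrays limits the precision, and the number of embryos behind a replicate is not stated in the labels. The NSPs had been grown with epidermal growth factor. The labels give the 0 h arrays the same serum control name as the later untreated arrays. They do not say whether these cells had already been moved to serum medium. In its inhibitor experiments the paper sets time 0 at the start of differentiation on poly-ornithine. On that definition a difference from 0 h spans the plating and the change from growth factor to serum medium. Neither can be told apart from time.

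The labelled cell type was checked against its markers. The mean log2 signal of Gfap, the astrocyte filament protein, was 9.0 at 0 h, 11.50 at 6 h and 13.54 at 72 h without TNF, and 4 of 10 astrocyte markers were higher at 72 h than at 0 h. The 7 progenitor markers were mixed at 72 h. The Notch target Hes5 fell by 2.17 (q = 3.42e-04) and the proliferation marker Mki67 by 2.99 (q = 0.0323, with overlapping arrays), Nes and Prom1 both rose by 0.98 (q = 0.00156 and 0.00198), and Pax6, Sox2 and Top2a were not called. None of 6 fibroblast or 8 microglial markers was called between untreated times, and 1 of 6 endothelial markers, Kdr, was called higher at 72 h. Of 6 mural cell markers the smooth muscle actin gene Acta2 went from 8.40 to 12.73 within 6 h. The others did not follow as a set. At 72 h Rgs5 was called higher (0.55), while Abcc9 (-0.23), Myh11 (-0.21), Kcnj8 (-0.18) and Pdgfrb (0.25) were not called. The oligodendrocyte lineage genes Olig1 and Olig2 fell by 1.03 and 1.49 at 72 h. As a check of the treatment, Nfkbia, Tnfaip3, Relb and Nfkb2, targets of NF-kB, were higher at every one of the 4 times (4 of 4, median log2 difference 1.51 at 6 h and 2.11 at 72 h).

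Differentiation without TNF went with large changes of a few WNT genes. At 72 h against 0 h, 4 of the 51 were higher and 10 lower. Over all probe sets the share called at 72 h was 12.6% higher and 10.2% lower. At 6 h the members called were 3 higher and 6 lower (all probe sets, 4.64% and 3.03%), at 24 h 2 and 13 (10% and 6.51%), and at 48 h 4 and 8 (8.99% and 6.97%). A gene was called when its q-value, the expected share of false calls, was under 0.05 over all probe sets. The q-values were computed from the limma p-values. The median log2 difference of the 51 genes was -0.06, -0.19, -0.11 and -0.18 at 6, 24, 48 and 72 h, beside -0.02, -0.05, -0.04 and -0.05 over all probe sets. Of the 0 h arrays the first read highest on nearly all members of low signal, though not on Sfrp5. For Wnt2b the 0 h arrays read 7.51, 6.92 and 6.78. The part of that array in these medians was not tested. In total 19 members were called at 1 time or more. Of these, 5 were called at all 4 times, namely Fzd9, Wnt7b, Axin2 and Sfrp5 lower and Fzd3 higher. Such totals over the times were not counted for all probe sets, so these have no share to be read against. The 4 comparisons share the 0 h arrays, so their calls are not separate evidence. In a mixed culture, fewer cells of a type and less RNA per cell cannot be told apart.

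**Figure D1:**
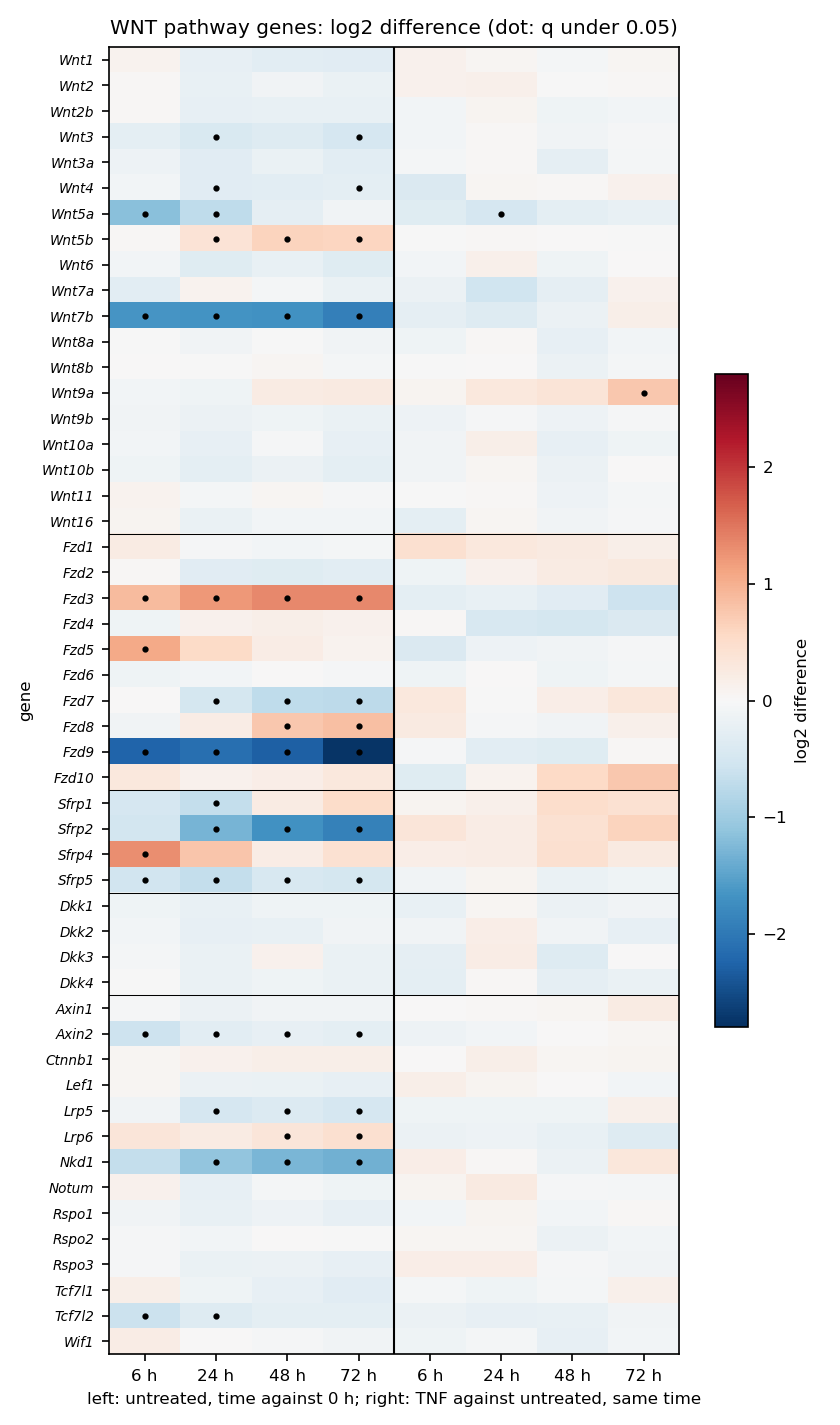
Log2 differences of the 51 WNT pathway genes (rows, by family) at 6, 24, 48 and 72 h: the left 4 columns give untreated cells against 0 h, the right 4 columns TNF-treated against untreated cells at the same time, and a dot marks q under 0.05. The left side holds the dark cells of Fzd9, Wnt7b and Sfrp2, while the right side has 2 dots, Wnt5a at 24 h and Wnt9a at 72 h.

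Among the ligands, Wnt7b showed the largest fall. Wnt7b acts in the canonical branch and is known from forebrain progenitors and blood vessel growth in the brain. Its log2 signal was 9.87, 10.16 and 10.69 in the 0 h arrays, 8.33, 8.74 and 8.68 at 6 h and 8.31, 7.84 and 8.83 at 72 h. Every later untreated array lay below every 0 h array. The log2 difference from 0 h was -1.65 at 6 h (SE 0.249, q = 1.57e-04, n = 3 and 3, limma) and -1.91 at 72 h (q = 6.41e-06), a 3.75-fold lower signal. Between 6 h and 72 h the gene was not called.

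Wnt5a, a ligand that mostly acts without beta-catenin, had the highest mean of the Wnt probe sets and fell and came back. The 0 h arrays read 10.48, 10.46 and 10.67 and the 6 h arrays 9.29, 9.43 and 9.38. At 72 h they read 10.56, 10.34 and 10.39, again within or next to the 0 h range. Its 6 h log2 difference from 0 h was -1.17 (SE 0.106, q = 3.43e-07) and its 24 h difference -0.72 (q = 4.99e-05), followed by -0.25 and -0.10, not called, at 48 and 72 h. A direct comparison of 72 h with 6 h, chosen after the data were seen, gave 1.06 (q = 4.63e-07). In that comparison 5 members were higher and 5 lower (all probe sets, 7.98% and 5.81%).

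Wnt5b, the closest relative of Wnt5a, took another course. The 0 h arrays read 8.68, 8.07 and 8.18, those of 6 h 8.55, 8.12 and 8.34 and those of 72 h 8.84, 9.08 and 8.80, so the groups at 0 h and 72 h did not overlap. It rose by 0.38 at 24 h (q = 0.0357, with overlapping arrays), 0.62 by 48 h (q = 0.00202) and 0.60 by 72 h (SE 0.134, q = 0.00157). Wnt3 and Wnt4, at lower signal, fell by 0.47 (q = 0.00915) and 0.28 (q = 0.0385) at 72 h. The further probe set of Wnt4 gave -0.67 at 72 h (q = 0.0126), the same direction and a larger size. The other 14 Wnt ligands were not called against 0 h at any time, and neither were Rspo1, Rspo2 and Rspo3, the R-spondins that amplify WNT signals by sparing Frizzled receptors from turnover, whose log2 differences lay between -0.22 and 0.01. Of the 19 Wnt probe sets 8 were in the lowest 40% of all probe sets by mean (mean log2 signal under 7.14), among them Wnt3 (6.94) and Wnt1 (6.37). Wnt1, named because it was 1 of the 10 calls of the added comparison and so chosen after its values were seen, was lower at 72 h than at 6 h (log2 difference -0.41, q = 0.0444), a call lost without any one of 5 of the 6 arrays (-0.32 to -0.47, q = 0.057 to 0.206).

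The receptors moved in opposite directions. Fzd9, a Frizzled known from the hippocampus and from progenitors, had the largest change of all 51 genes. Its log2 signal was 11.36, 11.65 and 11.55 in the 0 h arrays and 9.23, 9.08 and 9.53 in those of 6 h. The 24 h arrays read 9.46, 9.23 and 9.54, the 48 h arrays 9.59, 8.55 and 9.58 and the 72 h arrays 8.96, 8.33 and 9.04. No later array came near the 0 h arrays. The log2 difference was -2.24 after 6 h (SE 0.251, q = 4.77e-06) and reached -2.74 by 72 h (q = 6.43e-08), which is 6.69-fold lower. Fzd3, a receptor of the planar polarity branch needed for axon tracts, had the highest mean of the Frizzled probe sets and rose. It read 11.61, 10.71 and 11.12 at 0 h and 12.60, 12.51 and 12.34 at 72 h. Its log2 difference was 0.88 (SE 0.187, q = 0.0039) after 6 h, then 1.22, 1.35 and, by 72 h, 1.34 (q = 1.48e-05), each with all later arrays above the 0 h arrays.

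The remaining Frizzled calls differed in time. Fzd5, a receptor known from eye and gut development, was called at 6 h. The 0 h arrays read 8.55, 8.33 and 8.14, the 6 h arrays 9.0, 9.99 and 9.20 and the 72 h arrays 8.31, 8.76 and 8.24. The rise at 6 h was 1.06 (SE 0.248, q = 0.0084), but without the second 6 h array it was 0.76 (q = 0.0708). From 6 h to 72 h it fell by 0.96 (q = 0.00879), and by 0.66 without that array (q = 0.0594). Fzd8 moved late. Its 0 h arrays read 8.64, 8.72 and 8.55, its 6 h arrays 8.61, 8.57 and 8.46 and its 72 h arrays 9.46, 9.52 and 9.45, with close replicates and no overlap between 0 h and 72 h. Its log2 difference was 0.76 by 48 h (q = 2.61e-04) and 0.84 by 72 h (SE 0.131, q = 5.33e-05). Fzd7, a main receptor of canonical signals in stem cells, fell by 0.49 at 24 h (q = 0.0307), by 0.72 at 48 h, with overlapping arrays (q = 0.00324), and by 0.73 at 72 h (q = 0.0017). Fzd1, Fzd2, Fzd4, Fzd6 and Fzd10 were not called. The co-receptors split: Lrp5 was 9.52, 9.68 and 9.59 at 0 h and 9.16, 9.07 and 9.18 at 72 h (log2 difference -0.46, SE 0.087, q = 3.78e-04), whereas Lrp6 was 10.24, 9.84 and 10.12 at 0 h and 10.52, 10.58 and 10.42 at 72 h (0.44, SE 0.125, q = 0.00791).

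**Figure D2:**
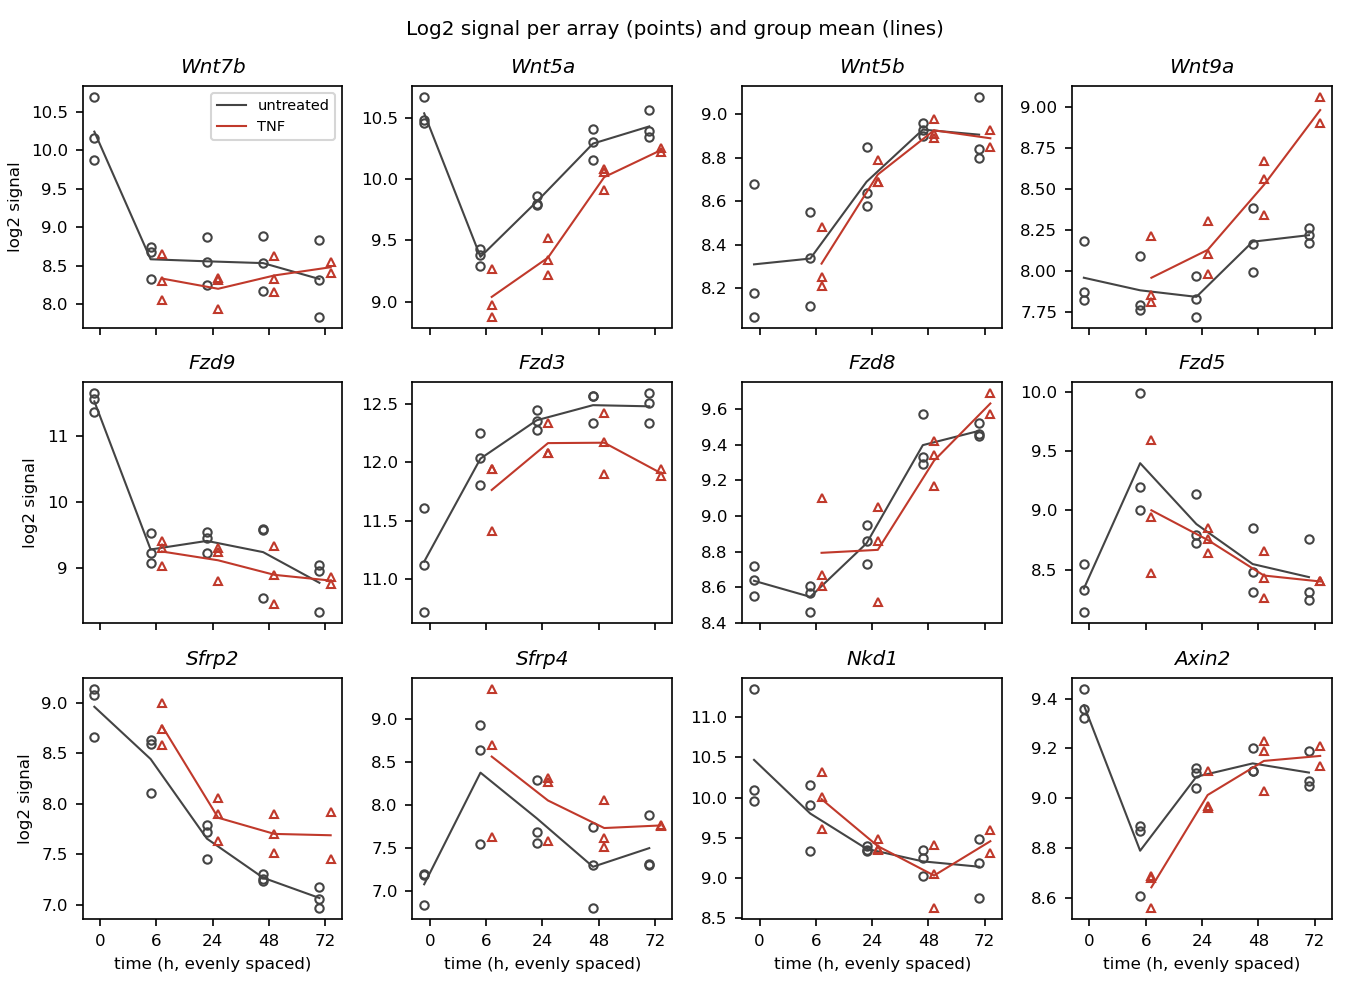
Log2 signal per array (points; circles untreated, triangles TNF) and group means (lines) of 12 WNT pathway genes from 0 to 72 h, with times evenly spaced and each panel on its own axis. Wnt7b and Fzd9 are low from 6 h on, Wnt5a and Axin2 dip at 6 h and rise again, Fzd3 and Fzd8 rise, and the 2 TNF arrays of Wnt9a at 72 h read 9.06 and 8.90 above untreated arrays of 8.17 to 8.26.

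The secreted inhibitors changed through the Sfrp family, soluble proteins with a Frizzled-like domain that bind WNT ligands. Sfrp2 read 8.66, 9.14 and 9.08 at 0 h, then 7.72, 7.46 and 7.79 at 24 h. The 48 h arrays read 7.24, 7.31 and 7.26 and the 72 h arrays 7.18, 6.97 and 7.06. Each of these later groups lay wholly below the 0 h arrays. The log2 difference was -0.52 at 6 h, not called, and -1.30, -1.69 and -1.89 (SE 0.167, q = 4.31e-08) at 24, 48 and 72 h. Sfrp1, the Sfrp probe set with the highest mean, was 7.71, 7.45 and 7.71 at 24 h against 8.06, 8.62 and 8.17 at 0 h (-0.66, q = 0.0326) and 8.70, 8.98 and 8.73 at 72 h. Its value at 72 h was not called against 0 h (0.52) but was against 6 h (0.99, q = 0.00331). Sfrp4 rose by 1.30 at 6 h (SE 0.373, q = 0.0287) on arrays that spread widely, 7.55, 8.93 and 8.64, and this call was lost without either of the higher ones (1.02, q = 0.162, and 1.16, q = 0.147). Sfrp5 was lower at every time, with log2 differences of -0.54, -0.67, -0.45 and -0.49 at 6, 24, 48 and 72 h. Its probe set was dim, in the lowest 40% of all probe sets by mean. The Dkk proteins, some of which block Lrp5 and Lrp6, showed no call. The log2 differences of Dkk1, Dkk2, Dkk3 and Dkk4 from 0 h lay between -0.23 and 0.13 in untreated cells. Their probe set means, 6.83 to 7.17, were near the lower 40% limit. Wif1 and Notum, a WNT-binding inhibitor and the enzyme that removes the ligand's lipid, were not called either.

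Of 4 members known as targets of beta-catenin (Axin2, Nkd1, Notum and Lef1), 2 were called lower against 0 h. Axin2, a scaffold of the destruction complex and the usual readout of canonical signalling, read 9.32, 9.36 and 9.44 in the 0 h arrays, 8.61, 8.89 and 8.87 in those of 6 h and 9.19, 9.07 and 9.05 in those of 72 h. All later untreated arrays were below the 0 h arrays. Its log2 difference was -0.59 after 6 h (SE 0.0852, q = 1.02e-04), -0.29 after 24 h, -0.24 after 48 h (q = 0.0476) and -0.27 after 72 h (q = 0.0151), and from 6 to 72 h it rose by 0.32 (q = 0.0115). Nkd1, a Dishevelled-binding antagonist, read 9.96, 10.09 and 11.36 at 0 h and 9.18, 8.75 and 9.48 at 72 h, and fell by 1.11 at 24 h (q = 0.00803), 1.27 at 48 h and 1.34 at 72 h (SE 0.293, q = 0.00132). The third 0 h array was the high one. Without it the log2 differences were -0.67, -0.83 and -0.89 at 24, 48 and 72 h (q = 0.0359, 0.0164 and 0.00684), all called but over 1.5 times smaller. Notum and Lef1 had log2 differences of -0.11 (-0.44 to 0.23) and -0.22 (-0.47 to 0.04) at 72 h, with 95% confidence intervals in parentheses.

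Of the core proteins, Ctnnb1, Axin1, Tcf7l1 and Lef1 were not called against 0 h and Tcf7l2 was. Ctnnb1, the gene of beta-catenin, read 12.94, 12.69 and 12.78 at 0 h and 13.06, 12.84 and 12.99 at 72 h, a difference of 0.16 (95% confidence interval -0.05 to 0.37) that was not called, although it was with the replicate number as a block. Axin1 differed by -0.09 at 72 h. Of the TCF/LEF factors, Tcf7l2 was lower at 6 h by 0.61 (9.96, 9.84 and 10.01 against 10.74, 10.15 and 10.75, q = 0.00266) and at 24 h by 0.36 with overlapping arrays (q = 0.0298) or, without the second 0 h array, a log2 difference of -0.56, while Tcf7l1 had -0.31 and Lef1 -0.22 at 72 h, both uncalled.

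Of the 50 calls against 0 h, 34 were kept when any one of the 6 arrays was left out. The other 16 were those of Wnt3, Wnt4, Wnt5b, Fzd7, Sfrp1, Tcf7l2 and Axin2 at 24 h, of Axin2, Lrp6 and Sfrp5 at 48 h, of Axin2, Wnt3 and Wnt4 at 72 h, and of Fzd5, Sfrp4 and Sfrp5 at 6 h. At 24 h the call of Axin2 was lost without the first or the second 24 h array (-0.27 and -0.30, q = 0.0514 and 0.0534), that of Wnt3 without the first 0 h array or the second or the third 24 h array (q = 0.0813 to 0.127), and that of Tcf7l2 without any 24 h array but the first or without the first or the third 0 h array (q = 0.063 to 0.177). The calls of Fzd7 (-0.34 to -0.51) and Wnt4 (-0.26 to -0.34) at that time were lost without any array but the second 0 h array (q = 0.0599 to 0.122 and 0.0518 to 0.164), that of Wnt5b (0.26 to 0.44) without any but the first 0 h array (q = 0.0652 to 0.117), and that of Sfrp1 (-0.49 to -0.70) without the second 0 h array or any 24 h array (q = 0.0523 to 0.153). At 48 h Axin2 lost its call without any array but the first 0 h array (-0.20 to -0.27, q = 0.064 to 0.153), Lrp6 without the second 0 h array or any 48 h array (0.23 to 0.39, q = 0.0702 to 0.173), and Sfrp5 without the first or the third 0 h array or the second 48 h array (q = 0.062 to 0.124). At 72 h Axin2 lost it without the second or the third 72 h array (-0.25, q = 0.0583 and 0.0613), Wnt3 without the first 0 h array or the second 72 h array (q = 0.0506 and 0.0543), and Wnt4 without any array but the second 0 h array (-0.24 to -0.32, q = 0.0564 to 0.115). At 6 h the calls at stake were that of Sfrp5 without the first or the third 0 h array or the second or the third 6 h array (-0.43 to -0.52, q = 0.0559 to 0.116) and that of Sfrp4 also without the first 0 h array (1.18, q = 0.0843). The rise of Axin2 from 6 h to 72 h was not called without the first array of either time (0.23, q = 0.0904, and 0.27, q = 0.0665). Every call of Fzd9, Wnt7b, Sfrp2, Fzd3, Fzd8, Nkd1, Lrp5 and, in untreated cells, Wnt5a was kept when single arrays were left out. Some of these were lost in a limma fit on only the arrays compared. They were Nkd1 at 24, 48 and 72 h (q = 0.0947, 0.108 and 0.0545), Lrp5 at 24 and 48 h (q = 0.0552 and 0.156) and Fzd3 at 6 h (q = 0.204). In that fit the 16 calls listed above were lost too. So were Axin2 and Tcf7l2 at 6 h (q = 0.146 and 0.268) and Sfrp5 and Lrp6 at 72 h (q = 0.0646 and 0.0772). Fzd7 and Wnt5b lost their calls at 48 h (q = 0.152 and 0.123) and 72 h (q = 0.0502 and 0.0708). Thus Axin2 kept no call in that fit, its rise from 6 h to 72 h included (q = 0.0708).

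Same-numbered untreated arrays of 72 h and 0 h deviated together weakly, with correlations of 0.14, 0.175 and 0.168 over all probe sets. The correlations were higher for untreated 6 h against 0 h (0.679, 0.596 and 0.503) and for TNF at 6 h (0.674, 0.559 and 0.461). The SE and q-values given here for 6 h come from the fit without the replicate block. With the replicate number as a block 23 members were called at 72 h against 0 h (7 higher, 16 lower) in place of 14. The added ones were Ctnnb1, Sfrp1 and Wnt9a higher and Dkk4, Tcf7l2, Wnt1, Wnt10b, Wnt3a and Wnt6 lower. For 72 h against 6 h the block gave 16 calls, 8 in each direction, in place of 10. Several marker lists moved with these comparisons. The summed linear signal of 10 astrocyte markers was 44200 to 62900 at 0 h and 74400 to 85100 at 72 h. Over the same arrays that of 6 oligodendrocyte lineage markers was 12600 to 14300 and 4860 to 7320, that of 6 mural markers, nearly all of it Acta2, was 936 to 1170 and 5340 to 8400, and that of 5 choroid plexus markers was 774 to 1010 and 1640 to 2120, with Ttr itself near 6. Their part in the WNT changes was not tested.

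With TNF, 2 calls were made among the WNT genes. Of the 51, none was called at 6 h (all probe sets, 0.312% higher and 0.0141% lower), 1 was lower at 24 h (0.627% and 0.236%), none was called at 48 h (0.773% and 0.264%) and 1 was higher at 72 h (0.596% and 0.554%). At an unadjusted limma p under 0.05 there were 3, 4, 6 and 5 in the order of the times. Over all 35556 probe sets there were 1768, 1999, 2316 and 3402. The median log2 difference of the 51 was -0.08, 0.04, -0.11 and -0.02, beside -0.04, 0.01, -0.02 and -0.02 over all probe sets. The count rests on the fit. At 72 h array weights gave 8 calls and a fit on just the arrays compared gave 4, at 24 h they gave 2 and 0, and at 6 h array weights gave 2. A single call in 51 is 1.96%, so the shares of members and of all probe sets cannot be set apart from such counts.

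Wnt5a was the gene called lower. At 24 h it read 9.80, 9.79 and 9.86 without TNF and 9.22, 9.34 and 9.52 with TNF, so the groups did not overlap. The log2 difference was -0.46 (SE 0.106, q = 0.0404, limma), a 1.37-fold lower signal. The TNF arrays were below all untreated arrays at the other times too, with -0.33 at 6 h, -0.27 at 48 h and -0.20 at 72 h, none of them called. The call at 24 h was lost, at nearly the same size, without any one of 5 of the 6 arrays compared (q = 0.11 to 0.236, sizes -0.39 to -0.47).

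Wnt9a, a canonical ligand best known from joint formation, was called higher at 72 h. Untreated arrays read 8.17, 8.26 and 8.22 and the TNF arrays 9.06 and 8.90, without overlap. The log2 difference was 0.76 (SE 0.154, q = 0.0152, n = 2 and 3), a 1.70-fold higher signal. At 6, 24 and 48 h the values were 0.08, 0.29 and 0.35, none called, and the difference between the effect at 72 h and that at 6 h was 0.68 (95% confidence interval 0.25 to 1.11, q = 0.738, not called). With 2 TNF arrays the call was lost without either of them (0.68, q = 0.316, and 0.84, q = 0.112) or without the first untreated array (0.74, q = 0.0698).

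**Figure D3:**
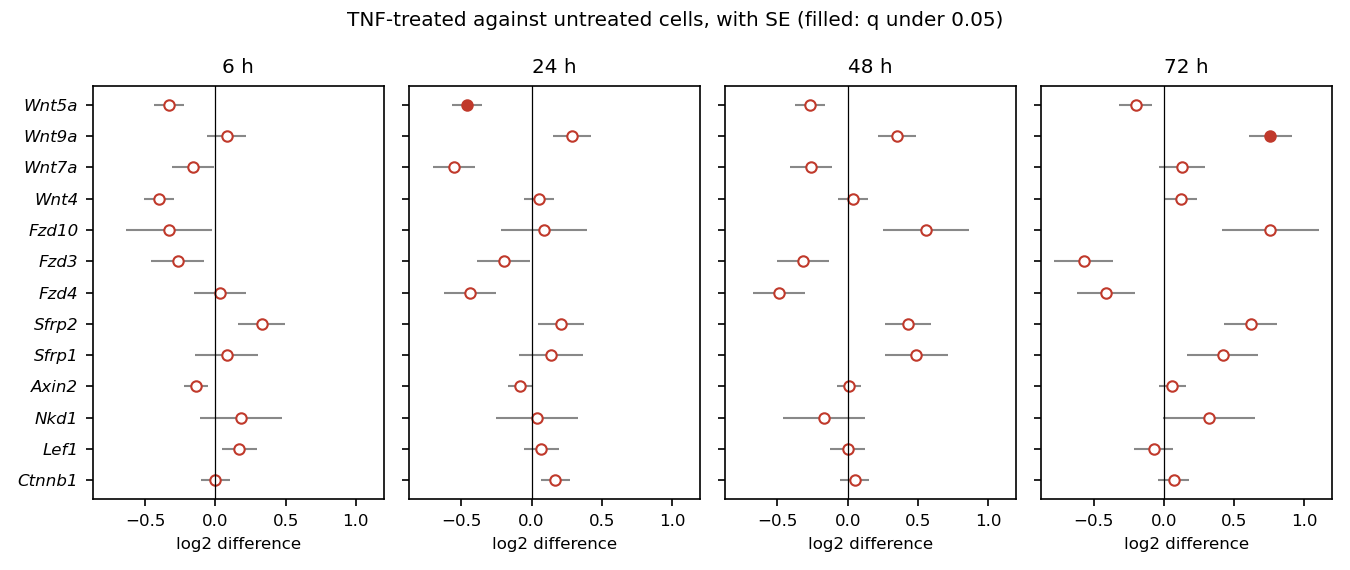
Log2 difference of TNF-treated against untreated cells at 6, 24, 48 and 72 h with its standard error (bars) for 13 WNT pathway genes, filled where q is under 0.05. Wnt5a lies below 0 and Wnt9a above 0 at all 4 times, and Axin2, Lef1 and Ctnnb1 stay within 0.17 of 0.

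The remaining TNF differences were not called, though some were as large. Sfrp2 read 7.24, 7.31 and 7.26 without and 7.90, 7.51 and 7.7 with TNF at 48 h, and 7.18, 6.97 and 7.06 against 7.92 and 7.46 at 72 h. The TNF arrays stood above the untreated ones at both times, with log2 differences of 0.43 (q = 0.439) and 0.62 (q = 0.139). Fzd3 went the other way at 72 h, 12.60, 12.51 and 12.34 against 11.94 and 11.88, without overlap (-0.57, q = 0.268). For both genes the TNF arrays at 72 h lay between the untreated arrays of that time and the 0 h arrays. Other members did not show this. For Sfrp1 the TNF arrays at 72 h, 9.21 and 9.24, lay above the untreated arrays (8.70, 8.98 and 8.73) and the 0 h arrays (8.06, 8.62 and 8.17). Those of Wnt9a were likewise above both. How many members took either course was not counted. Fzd10 read 8.89, 9.24 and 9.03 without TNF and 9.84 and 9.81 with TNF at 72 h (0.76, q = 0.462), on 0 h arrays that spread from 8.09 to 9.86. Wnt7a was lower at 24 h, 9.04, 9.55 and 9.28 against 8.48, 8.74 and 9.01 (-0.55, q = 0.111), and Fzd4 at 24 and 48 h (-0.44, q = 0.707, and -0.49, q = 0.433). Wnt4 was below all untreated arrays at 6 h (-0.40, q = 0.209), while its further probe set gave a smaller difference (-0.17, q = 0.894). Sfrp1 and Sfrp4 had 0.49 and 0.45 at 48 h, and Fzd1, Fzd5 and Fzd10 had 0.45, -0.40 and -0.33 at 6 h.

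None of the 4 target genes was called with TNF. The TNF effect on Axin2 was -0.14 at 6 h (95% confidence interval -0.32 to 0.03), -0.08 at 24 h (-0.26 to 0.10), 0.01 at 48 h (-0.17 to 0.19) and 0.06 at 72 h (-0.13 to 0.26). For Lef1 it was 0.17 at 6 h (-0.09 to 0.43) and -0.07 at 72 h (-0.36 to 0.22), and for Ctnnb1 0.17 at 24 h (-0.04 to 0.38). Notum had -0.06 at 72 h (-0.43 to 0.31), and Nkd1, measured less closely, 0.32 (-0.36 to 1.0). Among the other single genes, Lrp6 had -0.35 at 72 h (q = 0.335) with both TNF arrays below the untreated ones. Axin1, Lrp5, Notum, Rspo1, Rspo2, Rspo3, Tcf7l1, Tcf7l2 and Wif1 had log2 TNF differences between -0.23 and 0.25 at the 4 times, none called. No member was called for a TNF effect that differed from that at 6 h, at 24 h (all probe sets, 0.0253% called in either direction), 48 h (0.104%) or 72 h (0.124%). At an unadjusted limma p under 0.05 there were 2, 1 and 4 members, beside 947, 1025 and 1050 of all 35556 probe sets.

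Of 10 astrocyte markers, 1 was called with TNF at 24 h, the gap junction gene Gja1, lower by 1.10 (q = 0.0235), and none at 6, 48 or 72 h, where Gfap had -0.88 at 72 h (q = 0.195). At 72 h S100b, Slc1a2, Aldoc and Aqp4 had -1.31, -0.53, -0.47 and -0.22, uncalled, with the TNF arrays below all untreated ones. Aldh1l1 and Sox9 had 0.06 and 0.01 at that time. Fabp7 and Slc1a3 differed by at most 0.09 in size at all 4 times. The summed signal of 10 astrocyte markers was 71200 to 75800 without and 57000 to 64000 with TNF at 24 h, and 74400 to 85100 against 64300 to 65600 at 72 h. Of 8 microglial markers Cd68 was higher at 24 h (mean log2 signal 11.04 against 8.91, q = 0.00949, with overlapping arrays), while Aif1, Cx3cr1, Csf1r, P2ry12 and Tmem119 were not called. The part of these changes in the values of Wnt5a and Wnt9a was not tested.

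Promoter sequence was examined for 33 members with 41 windows in the RefSeq table (GRCm38.p6, 250 bases before to 50 after the start of transcription). The windows were rich in G and C, with a median of 67.3% against 52.7% over 32851 windows of all genes, and with a median of 26 CG steps against 7. The core of the TCF/LEF motif, CTTTGAA or CTTTGAT on either strand, occurred in 3 of 41 windows (7.32%; all genes, 8.65%), those of Dkk1, Wnt11 and 1 of the 3 Wnt5b windows. The NF-kB motif known as the kappaB consensus occurred in 2 (4.88%; all genes, 4.51%), those of Rspo1 and Wnt10b. Both shares are close to that of all windows. The windows of Wnt9a, the ligand higher with TNF, and of Fzd9, the receptor with the largest fall, are shown. With them is 1 of the 3 windows of Wnt5b, a ligand that rose, namely the one that holds the TCF/LEF core. They lie at chr11:59306680-59306979 on the plus strand, chr5:135250998-135251297 on the minus strand and chr6:119449337-119449636 on the minus strand. Capitals mark the TCF/LEF core, which begins at position -71 in Wnt5b, while neither motif occurs in the other two.
Wnt9a: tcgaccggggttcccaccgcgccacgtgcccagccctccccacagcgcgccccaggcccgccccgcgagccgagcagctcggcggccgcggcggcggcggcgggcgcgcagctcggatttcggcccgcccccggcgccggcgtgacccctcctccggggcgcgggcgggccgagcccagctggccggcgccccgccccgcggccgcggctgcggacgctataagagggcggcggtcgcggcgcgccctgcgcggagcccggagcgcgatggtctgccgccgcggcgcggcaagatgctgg
Fzd9: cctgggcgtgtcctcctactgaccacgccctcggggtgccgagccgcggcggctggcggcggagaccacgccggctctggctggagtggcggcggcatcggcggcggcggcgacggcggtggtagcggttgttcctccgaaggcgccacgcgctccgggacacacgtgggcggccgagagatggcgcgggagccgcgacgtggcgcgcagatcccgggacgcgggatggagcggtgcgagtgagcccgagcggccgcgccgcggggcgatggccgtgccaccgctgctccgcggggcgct
Wnt5b: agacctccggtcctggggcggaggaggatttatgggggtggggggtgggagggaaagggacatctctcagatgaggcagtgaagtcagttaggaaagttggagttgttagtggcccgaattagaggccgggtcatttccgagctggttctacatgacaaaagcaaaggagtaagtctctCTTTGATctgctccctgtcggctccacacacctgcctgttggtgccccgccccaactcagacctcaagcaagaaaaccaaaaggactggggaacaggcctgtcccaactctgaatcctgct
The Wnt9a window holds 58 CG steps and 83.3% G and C, the Fzd9 window 53 and 78.0%, and the Wnt5b window 7 and 55.0%.

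Other genes of the pathway were 67 measured in 8 lists. At 72 h against 0 h 16 were higher and 21 lower (all probe sets, 12.6% and 10.2%). The numbers higher were 8, 12 and 13 at 6, 24 and 48 h, and those lower 6, 13 and 15, where 4.64%, 10% and 8.99% of all probe sets were called higher and 3.03%, 6.51% and 6.97% lower. No test set these lists against other genes. Ligand release genes were higher: Wls, the carrier of WNT proteins to the cell surface, by 0.50 at 72 h (q = 0.00227) and Porcn, the enzyme that adds the lipid, by 0.68 (q = 0.0113). Among 9 other receptors, 2 were higher and 3 lower at 72 h. Lgr5, an R-spondin receptor and canonical target, fell by 1.97 (SE 0.337, q = 1.36e-04), whereas its relative Lgr4 rose by 1.21 (q = 3.94e-05). The Wnt5a receptors also differed, with Ror1 higher by 1.35 (SE 0.19, q = 1.69e-05) and Ror2 lower by 0.67 (q = 0.00135). Of 12 surface inhibitors 3 were higher and 7 lower at 72 h. Znrf3 and Rnf43, ubiquitin ligases that remove Frizzled receptors and are induced by the pathway, were lower at all 4 times, with -0.87 (q = 2.1e-05) and -0.98 (q = 0.0164) at 6 h and -0.59 and -1.08 at 72 h. Frzb, a secreted Sfrp relative, rose by 1.79 at 6 h (q = 3.88e-04) and was lower by 1.30 at 72 h (q = 0.0017). Kremen1, the Dkk co-receptor, fell by 0.96 at 6 h and 0.59 at 72 h.

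Of 6 other classical beta-catenin targets, Tnfrsf19 was lower at every time (-0.80 at 6 h, q = 7.09e-04, and -0.89 at 72 h), Ccnd1 and Sp5 were lower at 24 h with overlapping arrays, and Myc, Ascl2 and Bambi were not called. In the planar polarity list 6 of 9 genes were called higher at 72 h and none lower (all probe sets, 12.6% and 10.2%; the list was not tested against other genes). The largest difference was that of Daam2, a formin-related Dishevelled partner, with 2.55 (SE 0.295, q = 1.43e-06), Celsr2 with 1.21 and Prickle2 with 0.99. Of 12 nuclear cofactors 2 were higher and 6 lower at 72 h, with the corepressor Tle3 higher by 1.59 (q = 4.57e-07) and Tle1 lower by 0.98. In the destruction complex list Csnk1a1 was higher by 0.77, and Csnk1e and Amer1 were lower by 0.45 and 0.30. Of 7 genes of Dishevelled and its partners Frat1 and Cxxc4 were lower at 72 h, and Dvl1, Dvl2 and Dvl3 were not called.

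With TNF, 0, 1, 2 and 1 of these 67 were called at the 4 times, numbers too small to set apart from the shares of all probe sets given above for the members. Prickle2, which had risen without TNF, was lower with it by 0.88 after 24 h (SE 0.16, q = 0.00527) and by 0.71 after 48 h (q = 0.0271). Ror1 was higher with TNF at 48 h (0.88, SE 0.19, q = 0.0212) and had 0.70, 0.67 and 0.81, not called, at the other times. Apc, the scaffold of the destruction complex, was lower at 72 h (-0.94, SE 0.23, q = 0.0488, n = 2 and 3). The calls of these other genes were not recomputed without single arrays. For the ligand Wnt5a and its receptor Ror1, the TNF values at 48 h stood at -0.27, not called, and 0.88.

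**Figure D4:**
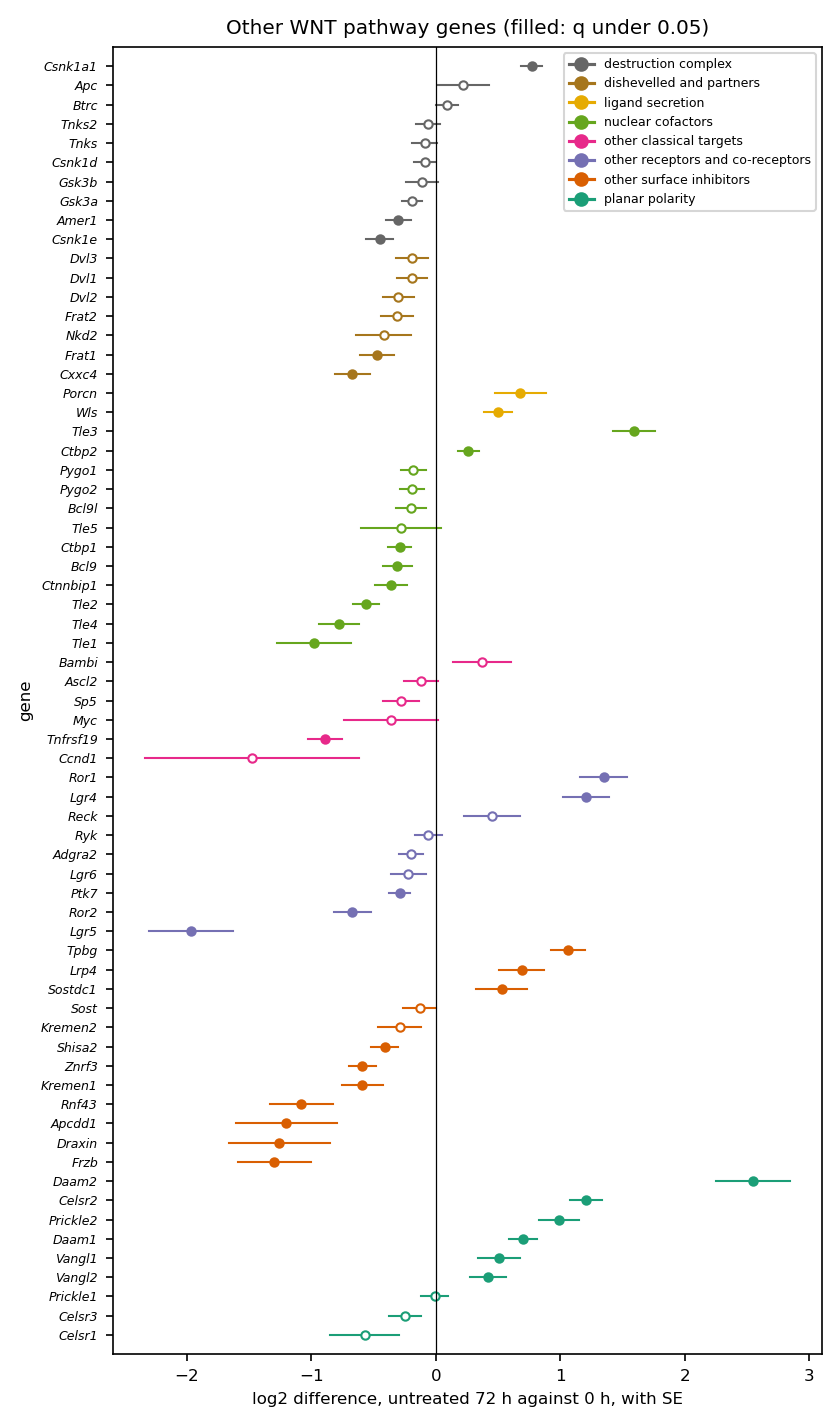
Log2 difference, untreated 72 h against 0 h, with its standard error (lines) for the 67 other WNT pathway genes, coloured by list and filled where q is under 0.05. The planar polarity genes lie mostly to the right (Daam2 at 2.55) and the surface inhibitors mostly to the left, with Lgr5 at -1.97 the lowest receptor.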

How the data were processed

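Total RNA of 26 cultures was measured on Affymetrix Mouse Gene ST arrays. The deposited values are log2 signals per probe set, which the authors made by RMA (background correction, quantile normalization and probe summary) with the oligo package in R 3.3.1, per the labels. Array medians were 7.54 to 7.76, and no 2 arrays held identical values (correlations 0.947 to 0.996). Symbols came from the platform annotation: 21789 probe sets had 1 symbol, 1621 several and 12146 none.

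From these values limma 3.58.1 in R 4.3.3 fitted 9 group means over all 26 arrays. Each contrast was tested over 35556 probe sets, and a q-value under 0.05 (spline estimate of the null share) was a call. Named genes were every member called in any comparison, the Wnt, Fzd, Sfrp and Dkk with the highest mean, the 4 members with the largest TNF difference at each time, the members named singly in the rule and, of 8 other pathway lists and 9 marker lists, called genes and those with the largest TNF differences, of which the text names a selection. The members and lists were chosen with earlier results of these data known. The code was tested on simulated data.

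Same-numbered replicates deviated together (correlation above 0.1 in every pair, over all probe sets) for TNF at 6 h and for untreated 6, 48 and 72 h against 0 h and 72 h against 6 h, but not for TNF at 24, 48 and 72 h or untreated 24 h. Alternatives were Benjamini-Hochberg adjustment, a fit on just the groups compared, array weights, cyclic loess, a robust prior with intensity trend, the replicate block, a filter on dim probe sets, probe set means and each array left out in turn.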

Additional observations from a re-analysis of the deposited data

How the results depend on the processing

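No direction was reversed in any result or alternative. The counts of members called by TNF rest on single genes and moved most. At 6 h array weights gave 2 (Wnt4 and Wnt5a) in place of 0. At 24 h the fit on only the arrays compared gave 0, array weights gave 2 (Wnt5a and Wnt7a), and leaving out single arrays gave 0 to 2, in place of 1. At 72 h the fit on only the arrays compared gave 4 (Fzd10 and Wnt9a higher, Fzd3 and Lrp6 lower), array weights 8, the replicate block 2 (with Fzd3, -0.60) and leaving out single arrays 0 to 1, in place of 1. Where this left 1 TNF array, it was assumed to vary like the other groups. For the TNF effect at 72 h minus that at 6 h array weights gave 3 in place of 0. Against 0 h the fit on only the arrays compared gave 3 in place of 9 at 6 h, 6 in place of 15 at 24 h, 5 in place of 12 at 48 h and 6 in place of 14 at 72 h, where the spread rests on 6 arrays. Benjamini-Hochberg adjustment gave 9 at 24 h. Leaving out single arrays gave 8 to 15 at 24 h, with 8 without the second and 9 without the third 24 h array, 6 to 11 at 6 h, 9 to 13 at 48 h and 11 to 20 at 72 h. The replicate block gave 23 at 72 h against 0 h and 16 at 72 h against 6 h, where array weights gave 20, in place of 14 and 10. By the cut of a correlation above 0.1 in every pair, the replicate numbers did not pair the arrays for TNF at 24, 48 and 72 h or for untreated 24 h. With TNF at 24 and 48 h only the third pair fell short (0.0263 and -0.0238), and the other pairs had 0.309 to 0.608. The cut does not rank the strength of pairing, since untreated 72 h against 0 h passed it with 0.14, 0.175 and 0.168. Elsewhere the counts stayed within 1.5 times. Array weights were lowest for the first (0.199) and second (0.292) 0 h arrays and the second TNF array at 6 h (0.221). No result met the criteria for a closer look. The small number of arrays and the low signal of 15 members (mean log2 under 7.14) limit what could be called.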
